A study of Mus musculus with 4 samples.

Results

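Genomic imprinting was followed through 50 named genes of the mouse, each of which was found under its symbol among the 53397 genes of the deposited table. The genes were chosen as a list of known imprinted genes, with earlier results of these data known. They were set out by the 18 imprinted loci, on 9 chromosomes, in which they lie and by the parental allele that is known to be expressed, which gave 23 paternally and 27 maternally expressed genes. The parental alleles were taken from general knowledge of the mouse, since the reads were not split by allele. The 42 protein-coding members and the 8 noncoding RNAs are all accounted for. RNA had been isolated from pooled posterior epiblast, the tissue that holds the progenitors of the trunk, of wild type embryos. The groups were E8.5, after embryos engage in trunk formation, with 2 libraries, and E7.5, before that step, with 2 libraries. Both stages were wild type, and the strain is not given in the sources used here. Libraries were made by SMART-Seq2, which copies polyadenylated RNA but does not record its strand. Where members overlap a gene on the other strand, reads of the shared bases therefore cannot be assigned by strand. Whether such reads were counted or left out is not given in the sources used here. How many embryos went into a pool is not given in the sources used here, and p-values rest on the spread between pools, not between embryos. For each gene, limma takes that spread largely from a trend over all genes, with 2 residual and 12.8 prior degrees of freedom.

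Imprinted genes are expressed mainly from the allele inherited from one parent, because marks of DNA methylation set in the egg or the sperm are kept after fertilization at control regions. Many lie in clusters in which a long noncoding RNA or an insulator acts on several neighbours at a distance. Paternally expressed genes such as Igf2 and Mest are known for promoting fetal growth, and maternally expressed genes such as Grb10, Igf2r, Cdkn1c and Phlda2 for restraining it, many of them in the placenta.

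The libraries held 18488218 and 18515565 reads assigned to genes at E8.5, against 19111464 and 19493342 at E7.5. The gene CT010467 took between 18.5% and 18.9% of the total value in 3 libraries and 25.6% in E7.5 replicate 1. Values are normalised counts, that is, reads scaled by library, and fold changes are given on the scale of log2(normalised count + 1), which understates the change of low genes. Of 9 posterior epiblast markers tested, 2 rose and 5 fell, and the list summed to 709 and 677 normalised counts at E8.5, against 1004 and 977 at E7.5. Cdx2, the highest of them with Nkx1-2, was at 259.7 and 260.2 normalised counts at E8.5, against 259 and 227 at E7.5, and Nkx1-2 was at 213 and 188 normalised counts at E8.5, against 319 and 345 at E7.5. Across all 13903 genes tested, 25.6% were called higher and 26.4% lower at a limma adjusted p under 0.05. Markers of some other cells moved between the stages. Of 7 blood markers tested, led by Hbb-bh1 and Hba-x, 6 rose and 1 fell, and the 8 listed summed to 404 and 411 normalised counts at E8.5, against 11.7 and 11.9 at E7.5. Of 8 endothelial markers, 7 rose, Kdr at the highest level, and Etv2 did not pass, with sums of 224 and 205 normalised counts at E8.5, against 60.9 and 56.3 at E7.5. Visceral endoderm markers, led by Apob and Cubn, all fell, 10 of 10, and summed to 326 and 335 normalised counts at E8.5, against 2707 and 2623 at E7.5. Of 10 markers of extraembryonic mesoderm and allantois, led by Vim and Spin2c, 5 rose and 3 fell, and of 6 germ cell markers, led by Ifitm3 and Prdm1, 1 rose and 3 fell. In such bulk tissue, fewer cells of a type and less RNA per cell cannot be told apart.

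**Figure D1:**
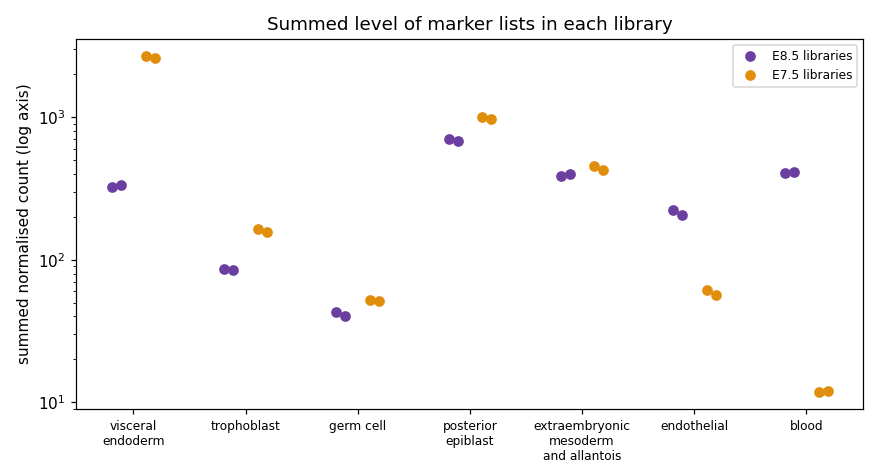
Summed normalised counts (y axis, log scale) of 7 lists of cell type markers (x axis) in each of the 2 E8.5 and 2 E7.5 libraries, a point for each library. Blood markers lie at 404 and 411 in E8.5 libraries, against 11.7 and 11.9 in E7.5 libraries, and visceral endoderm markers at 326 and 335, against 2707 and 2623.

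The start regions of 4 members with large changes are shown because 3 of them carry the hexamer TGCCGC, which the zinc finger protein Zfp57 reads when it is methylated to keep imprints after fertilization. Each is 250 bases before to 50 bases after a RefSeq start on GRCm38.p6, in the direction of transcription. TGCCGC and its reverse complement GCGGCA are in capitals. The start of Mest lies on the plus strand at chr6:30737800-30738099, that of Plagl1 on the plus strand at chr10:13090582-13090881, that of Grb10 on the minus strand at chr11:12037371-12037670 and that of Phlda2 on the minus strand at chr7:143502475-143502774.
Mest: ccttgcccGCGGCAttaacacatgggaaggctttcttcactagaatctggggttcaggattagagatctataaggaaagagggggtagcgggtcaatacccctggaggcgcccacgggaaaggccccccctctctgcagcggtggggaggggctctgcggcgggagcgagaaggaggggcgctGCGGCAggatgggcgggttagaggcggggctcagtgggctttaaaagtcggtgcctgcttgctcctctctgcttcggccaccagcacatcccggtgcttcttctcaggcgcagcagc
Plagl1: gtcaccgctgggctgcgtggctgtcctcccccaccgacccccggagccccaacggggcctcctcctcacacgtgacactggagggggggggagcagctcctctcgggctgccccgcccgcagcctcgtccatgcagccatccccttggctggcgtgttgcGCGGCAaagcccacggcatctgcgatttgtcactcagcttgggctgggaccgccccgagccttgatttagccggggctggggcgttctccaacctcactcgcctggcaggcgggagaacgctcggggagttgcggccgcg
Grb10: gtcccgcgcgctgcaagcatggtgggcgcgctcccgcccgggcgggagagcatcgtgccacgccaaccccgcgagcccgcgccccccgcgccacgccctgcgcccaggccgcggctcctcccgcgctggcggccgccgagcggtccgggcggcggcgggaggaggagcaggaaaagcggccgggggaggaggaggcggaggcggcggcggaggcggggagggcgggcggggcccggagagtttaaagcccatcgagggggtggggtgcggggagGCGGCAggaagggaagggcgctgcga
Phlda2: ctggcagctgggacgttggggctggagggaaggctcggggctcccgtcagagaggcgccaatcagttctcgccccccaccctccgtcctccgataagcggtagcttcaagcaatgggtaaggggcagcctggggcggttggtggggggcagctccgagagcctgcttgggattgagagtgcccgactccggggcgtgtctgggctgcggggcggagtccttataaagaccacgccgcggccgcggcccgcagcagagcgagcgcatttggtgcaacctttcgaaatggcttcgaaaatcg
The Mest window held 2 copies of the hexamer and 17 CpGs, the Plagl1 window 1 copy and 26 CpGs, the Grb10 window 1 copy and 45 CpGs, and the Phlda2 window no copy and 26 CpGs. Start regions were found for 37 members, at 55 promoters, of which 13 (23.6%) held the hexamer, against 11.6% of all 32851 promoters of that length. The hexamer contains a CpG, and the windows of members held a median of 14 CpGs, against 7 in all promoters. The 13 include Mest in a pair of overlapping windows that hold the same copies. Mest and Grb10 each also had a start with no copy. Other members called with at least a 2-fold change on the log2(normalised count + 1) scale were mixed. No window of Airn, Ndn, Kcnq1ot1, Slc22a3, Ddc or Slc22a18 held a copy, while a window of Igf2 and of Calcr did. At least 1 copy at any start was found in 6 of 17 paternally expressed and 6 of 20 maternally expressed members with a promoter. Over all 27025 genes with a promoter, that share was 13.1%. The match is a description, not a bound site, and methylation was not measured here. H19 also carries a microRNA that is known to be processed from it, and its mature arms are shown with their seeds, bases 2 to 8, in capitals. They lie on the minus strand of chromosome 7, at 142577112 to 142577133 and 142577078 to 142577099.
mmu-miR-675-5p: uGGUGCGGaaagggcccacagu
mmu-miR-675-3p: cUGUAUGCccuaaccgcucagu
The gene Mir675 itself was listed at 0 reads in every library, and mature microRNAs were not measured in these polyadenylated libraries.

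Most imprinted genes changed between the stages, with more increases than decreases. Of the 48 members with a normalised count of at least 1 in at least 2 libraries, 28 rose and 8 fell at a limma adjusted p under 0.05, and 12 did not pass. Across all 13903 genes tested, 52.0% were called, 25.6% as higher and 26.4% as lower. On the log2(normalised count + 1) scale, a change of at least 2-fold was called higher for 8 and lower for 4 members, against 4.48% and 6.35% of all genes, 10.8% in both directions together. By the plain ratio of stage means, 13 members called higher were at least 2-fold apart, against 7.19% of all genes, since the added 1 shrinks the change of low genes such as Zim1, Dio3 and Nap1l5. The median log2 fold change was 0.41 over the members and -0.0074 over all genes. The libraries of the stages did not overlap for 39 of the 48 members, 29 of them higher and 10 lower, and for 76.3% of all genes. The members summed to 6525 and 6511 normalised counts at E8.5, against 4865 and 4886 at E7.5, which was 0.673% and 0.673% of the total value at E8.5 and 0.453% and 0.494% at E7.5. Slc22a3 and Dio3 passed the filter only through E8.5 and Calcr only through E7.5.

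**Figure D2:**
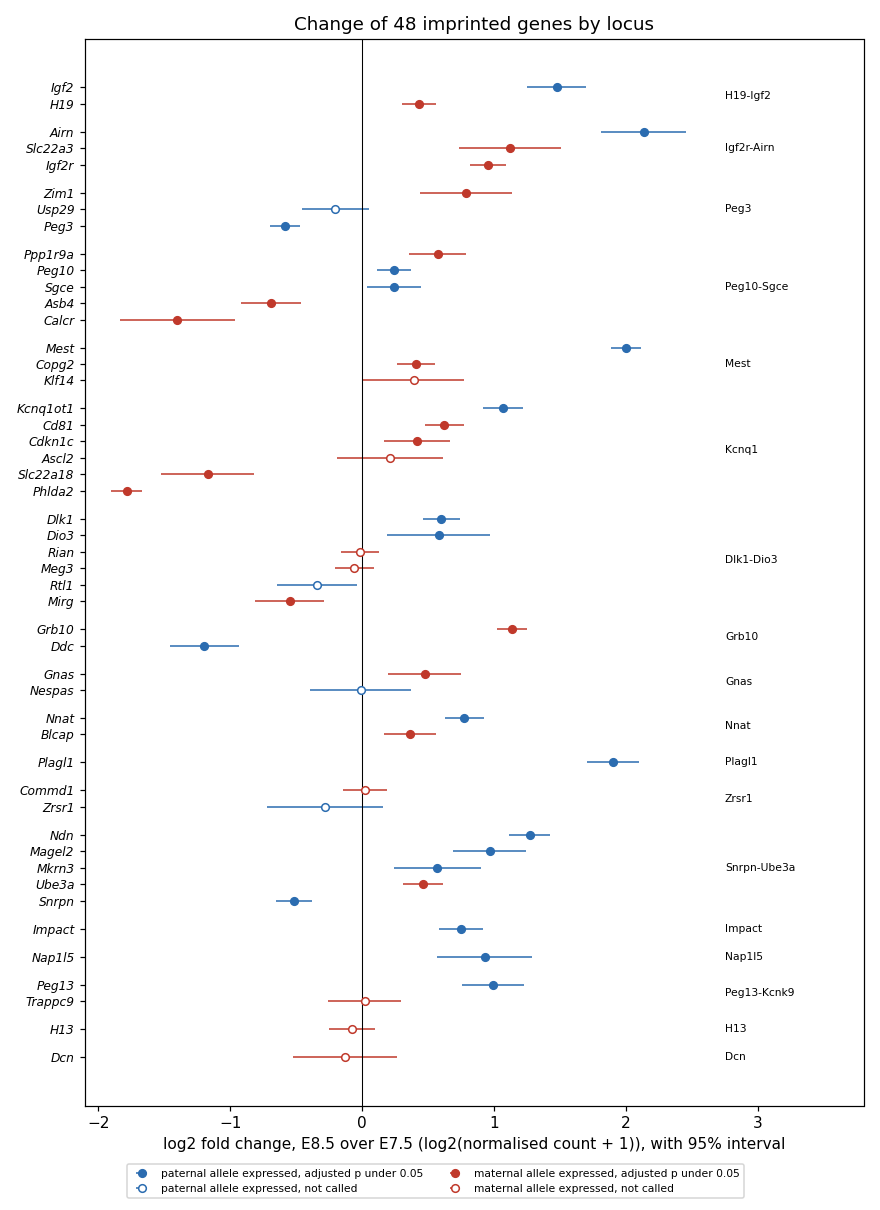
Log2 fold change of E8.5 over E7.5 (x axis, on the log2(normalised count + 1) scale) of the 48 members tested, grouped by locus (y axis), with 95% intervals from limma. Filled points passed an adjusted p of 0.05, and colour gives the expressed parental allele. Mest (2.0) and Airn (2.13) lie at the far right and Phlda2 (-1.78) at the far left.

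A few genes held much of the summed normalised count of the members, in which longer genes weigh more. At E8.5, Mest, Grb10 and Peg3 made up 54.2% of the members' summed value. At E7.5, Peg3, Phlda2 and Grb10 made up 49.3%. Per kilobase of exon, the order at E8.5 was Mest with 377 normalised counts per kb, Phlda2 with 173, Grb10 with 140 and H19 with 101. At E7.5 it was Phlda2 with 597 per kb, Mest with 94.2, Peg3 with 86.8 and H19 with 75. Mest was thus the highest member per length at E8.5 and Phlda2 at E7.5. At the low end, 12 members had a highest stage mean between 1 and 10 normalised counts and 2 were under 1.

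**Figure D3:**
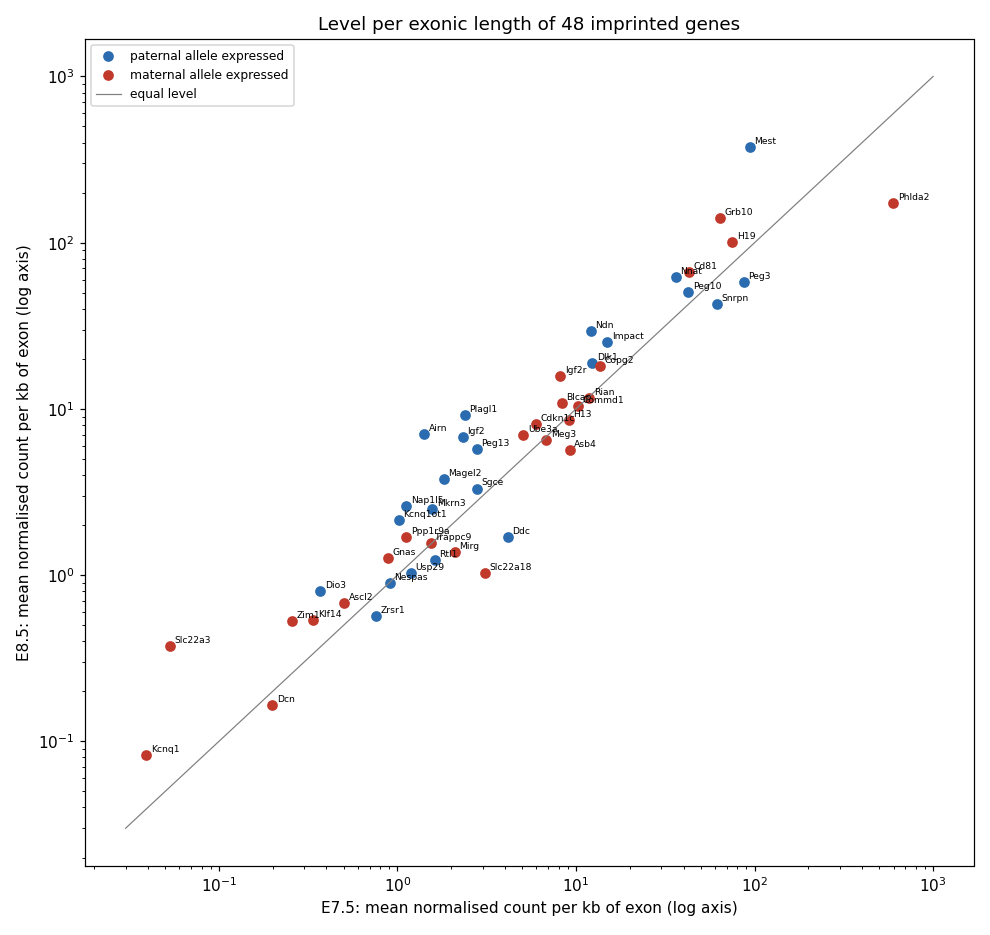
Mean normalised count per kilobase of exon at E8.5 (y axis) and E7.5 (x axis), both on log scales, for the 48 members with over 3 reads at each stage, coloured by the expressed parental allele. Mest lies above the line of equal level, at 377 per kb at E8.5 against 94.2 at E7.5, and Phlda2 below it, at 173 against 597.

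At the growth factor locus of chromosome 7, both members rose. Igf2 (chr7:142650766-142666816, GRCm38), the insulin-like growth factor of fetal growth, was at 41.7 and 35.9 normalised counts at E8.5, against 13.3 and 13.3 at E7.5. Both E8.5 libraries lay above both E7.5 libraries, and Igf2 was 2.92-fold higher at E8.5 (log2 fold change 1.48, SE 0.10, limma adjusted p 2.0e-08). Of its exonic bases, 64.5% are shared, 62.8% with the readthrough gene Gm49394, which was listed at 0 reads in every library. No read of the shared bases was thus counted for Gm49394, and whether such reads were counted for Igf2 is not known. If they were left out, the count of Igf2 is too low beside that of other genes. H19, the noncoding RNA that shares enhancers with Igf2 and is expressed from the maternal allele, was at 247 and 251 normalised counts at E8.5, against 193 and 176 at E7.5. H19 was 1.35-fold higher at E8.5 (log2 fold change 0.43, SE 0.061, limma adjusted p 3.1e-05). H19 and Igf2 are also known to be expressed in visceral endoderm and extraembryonic mesoderm, and the summed markers of visceral endoderm were lower at E8.5. Of 10 markers of extraembryonic mesoderm and allantois, 5 rose and 3 fell. The list summed to 389.8 and 402 normalised counts at E8.5, against 454 and 424 at E7.5. Postn was 19.1-fold, Pitx1 5.21-fold and Tbx4 3.07-fold higher at E8.5, while the more abundant Vim and Hand1 were 1.55-fold and 1.76-fold lower. The part of these tissues in H19 and Igf2 was not tested.

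Igf2r and Grb10, which limit insulin-like growth factor signals, rose as well. Igf2r, the receptor that takes up and degrades Igf2, was at 148 and 147 normalised counts at E8.5, against 73.2 and 78.4 at E7.5. The groups did not overlap, and Igf2r was 1.95-fold higher at E8.5 (log2 fold change 0.95, SE 0.065, limma adjusted p 1.3e-08). Airn (chr17:12741311-12860136, GRCm38), the antisense RNA that silences the paternal copy of Igf2r in mouse, was at 25.6 and 25.2 normalised counts at E8.5, against 6.07 and 4.11 at E7.5. Airn was 4.99-fold higher at E8.5 (log2 fold change 2.13, SE 0.15, limma adjusted p 2.0e-08). Slc22a3, an organic cation transporter imprinted in placenta, was near the filter, at 1.47 and 1.93 normalised counts at E8.5, against 0.225 and 0.254 at E7.5, from 65 reads at E8.5 and 9 at E7.5, and was called higher (log2 fold change 1.12, SE 0.18, limma adjusted p 1.1e-04). Its transcript shares 9.31% of its exonic bases with Plg on the opposite strand, which was lower at E8.5, at 0.525 and 0.992 normalised counts, against 3.60 and 3.50 at E7.5. Grb10 (chr11:11930508-12038683, GRCm38), an adaptor that inhibits insulin and IGF receptors, was at 1284 and 1267 normalised counts at E8.5, against 586 and 574 at E7.5. It was 2.2-fold higher at E8.5 (log2 fold change 1.14, SE 0.054, limma adjusted p 2.0e-10). Ddc, the neighbouring aromatic amino acid decarboxylase, paternally expressed in heart, moved the other way, at 7.24 and 7.83 normalised counts at E8.5, against 18.7 and 18.5 at E7.5. It was 2.46-fold lower at E8.5 (log2 fold change -1.2, SE 0.12, limma adjusted p 1.3e-06).

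**Figure D4:**
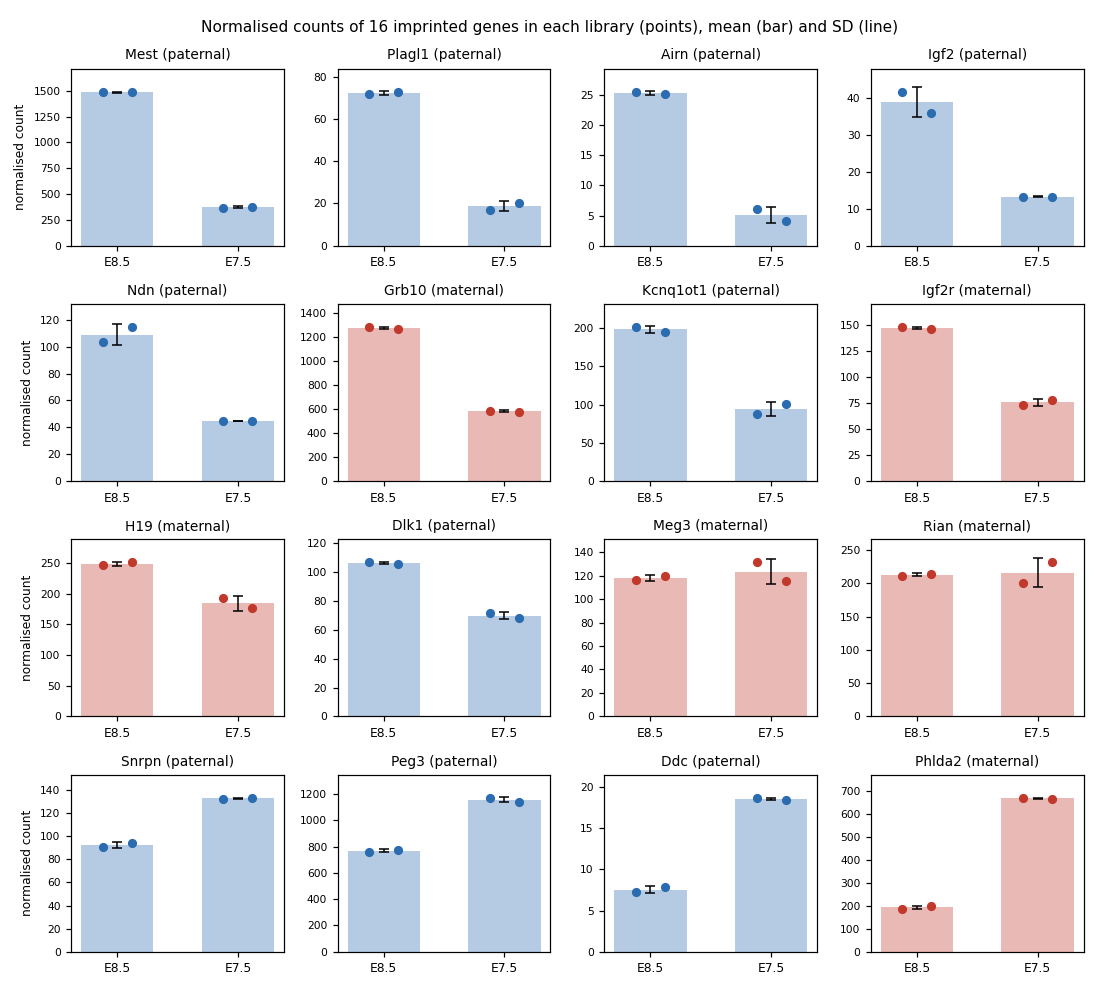
Normalised counts (y axes, each from 0) of 16 members in the 2 E8.5 libraries and the 2 E7.5 libraries, as points, with the mean as a bar and the SD as a line, blue for paternally and red for maternally expressed genes. Mest lies at 1492 and 1485 at E8.5, against 365 and 378 at E7.5, while Phlda2 lies at 188 and 199 at E8.5, against 671 and 668 at E7.5.

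Mest and Plagl1, both paternally expressed, rose. Mest, a hydrolase (chr6:30723547-30748465, GRCm38), was at 1492 and 1485 normalised counts at E8.5, against 365 and 378 at E7.5. It was 4.01-fold higher at E8.5 (log2 fold change 2.0, SE 0.054, limma adjusted p 2.6e-13), the smallest adjusted p of the members. Of its exonic bases, 23.1% are shared with the end of Copg2 on the opposite strand. Copg2, a coatomer subunit whose imprinting is known from brain, was at 93.7 and 91.1 normalised counts at E8.5, against 70.3 and 68.4 at E7.5, and rose by a log2 fold change of 0.41. Copg2 shares 17.8% of its exonic bases with Mest. Klf14, a Kruppel-like factor of the same locus, had 1.68 and 1.62 normalised counts at E8.5, against 0.843 and 1.22 at E7.5, and did not pass (log2 fold change 0.39, SE 0.18, limma adjusted p 0.082), though with no mean-variance trend its adjusted p was 0.0402. Plagl1 (chr10:13060504-13131694, GRCm38), a zinc finger factor of growth control, was at 71.6 and 72.8 normalised counts at E8.5, against 17 and 20.2 at E7.5. It was 3.88-fold higher at E8.5 (log2 fold change 1.9, SE 0.093, limma adjusted p 2.8e-10). Mest is also known from mesoderm and endothelium, and the endothelial marker Kdr was at 113 and 107 normalised counts at E8.5, against 29.7 and 29.4 at E7.5. The part of these cells in the level of Mest was not tested.

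The Kcnq1 domain of chromosome 7 held changes in both directions. Phlda2 (chr7:143501545-143503150, GRCm38), a protein that restrains placental growth, fell to 188 and 199 normalised counts at E8.5, against 671 and 668 at E7.5. It was 3.46-fold lower at E8.5 (log2 fold change -1.78, SE 0.055, limma adjusted p 1.2e-12), the largest fold decrease of a member with a mean of at least 10. Slc22a18, a transporter-like protein, also fell, at 1.73 and 1.78 normalised counts at E8.5, against 5.62 and 4.82 at E7.5 (log2 fold change -1.17, SE 0.17, limma adjusted p 3.1e-05). The summed markers of visceral endoderm and of trophoblast were lower at E8.5 too. The part of these tissues in Phlda2 and Slc22a18 was not tested. Kcnq1ot1, the antisense RNA that silences the domain in cis, was at 201 and 195 normalised counts at E8.5, against 87.5 and 101 at E7.5. It was 2.1-fold higher at E8.5 (log2 fold change 1.07, SE 0.071, limma adjusted p 9.6e-09). It is annotated over 93092 exonic bases, 99.9% of them inside introns of Kcnq1, so reads from unspliced Kcnq1 RNA cannot be told apart from it. Kcnq1, a potassium channel subunit, did not pass the filter, with 13 reads at E8.5 and 6 at E7.5. Cdkn1c, a cyclin-dependent kinase inhibitor, was at 16.4 and 16.6 normalised counts at E8.5, against 11.6 and 12.7 at E7.5, and was called higher (log2 fold change 0.41, SE 0.12, limma adjusted p 0.0084), but without E7.5 replicate 1 its adjusted p was 0.0572 at a log2 fold change of 0.35. Of the exonic bases of Cdkn1c, 30.7% are shared with Gm44732 on the opposite strand, which was listed at 0 reads in every library. Cd81, a tetraspanin imprinted in placenta, was at 182 and 201 normalised counts at E8.5, against 117 and 131 at E7.5, and rose by a log2 fold change of 0.62. Ascl2, a trophoblast factor, was at 0.945 and 1.25 normalised counts at E8.5, against 0.618 and 1.01 at E7.5, and did not pass.

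The 3 maternally expressed noncoding RNAs and 3 paternally expressed genes of the Dlk1-Dio3 domain of chromosome 12 did not move together. Dlk1, a transmembrane protein related to Notch ligands, was at 107 and 106 normalised counts at E8.5, against 71.5 and 68.3 at E7.5. It was 1.52-fold higher at E8.5 (log2 fold change 0.60, SE 0.066, limma adjusted p 2.6e-06). Meg3, the long noncoding RNA of the maternal allele, was at 116 and 120.1 normalised counts at E8.5, against 131 and 116 at E7.5, and the stages overlapped (log2 fold change -0.060, 95% interval -0.21 to 0.088). Rian, the host of small nucleolar RNAs, was at 211 and 215 normalised counts at E8.5, against 200.3 and 231 at E7.5, and overlapped as well (log2 fold change -0.016, 95% interval -0.16 to 0.13). Mirg, the host of a microRNA cluster, fell to 10.4 and 9.76 normalised counts at E8.5, against 15.2 and 15.3 at E7.5 (log2 fold change -0.55, SE 0.12, limma adjusted p 0.0015). Rtl1, a retrotransposon-derived gene of placenta and muscle, was at 8.24 and 7.52 normalised counts at E8.5, against 11.2 and 9.38 at E7.5, and missed the threshold (limma adjusted p 0.053). It passed under 4 alternatives, at an adjusted p of 0.0448 without E7.5 replicate 2, 0.0497 with a pseudocount of 4, 0.0410 with a minimum value of 5 and 0.0496 with the replicate block. Dio3, which inactivates thyroid hormone, was at 1.89 and 1.36 normalised counts at E8.5, against 0.787 and 0.71 at E7.5, and was called higher (log2 fold change 0.58, SE 0.18, limma adjusted p 0.015). Without E8.5 replicate 1 its adjusted p was 0.138 at a log2 fold change of 0.43, and without E7.5 replicate 2 it was 0.0610 at 0.55. With low genes kept in the fit it was 0.0999, and with DESeq2 0.125.

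Ratios of paired transcripts were taken within a library, where they depend little on its scaling. The ratio of H19 to Igf2 was lower at E8.5, at log2 2.54 and 2.77, against 3.76 and 3.63 at E7.5, a difference of -1.04 of stage means. The ratio of Meg3 to Dlk1 was lower too, at log2 0.12 and 0.18 at E8.5, against 0.87 and 0.75 at E7.5, a difference of -0.66. The ratio of Airn to Igf2r was higher at E8.5, at log2 -2.49 and -2.5, against -3.39 and -3.96 at E7.5, a difference of 1.18. The ratio of Kcnq1ot1 to Cdkn1c was higher at E8.5, at log2 3.54 and 3.48, against 2.81 and 2.90 at E7.5, a difference of 0.66. The ratio of Nespas to Gnas was at log2 -1.92 and -2.07 at E8.5, against -1.21 and -1.81 at E7.5, a difference of -0.48, which moved to -0.18 without E7.5 replicate 1 and to -0.78 without E7.5 replicate 2. In each pair the stages did not overlap, but with 2 libraries a stage an exact permutation test cannot give a p below 0.333, so none is reported.

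**Figure D5:**
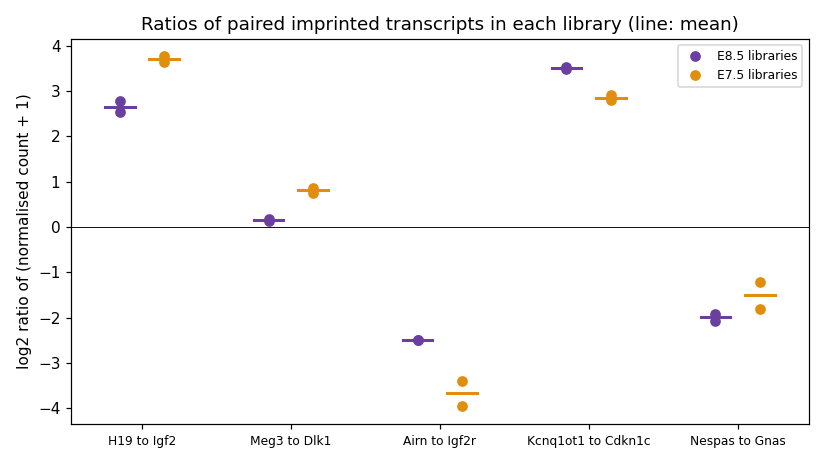
Log2 ratio of (normalised count + 1) between 2 transcripts of a locus (y axis) for 5 pairs (x axis) in each library, with a line at the stage mean. H19 to Igf2 lies at 2.54 and 2.77 in E8.5 libraries, against 3.76 and 3.63 in E7.5 libraries, and Airn to Igf2r at -2.49 and -2.5, against -3.39 and -3.96.

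In the Peg3 domain of chromosome 7, Peg3 fell and Zim1 rose. Peg3 (chr7:6703892-6730431, GRCm38), a zinc finger protein, was at 762 and 778 normalised counts at E8.5, against 1170.4 and 1142 at E7.5. It was 1.5-fold lower at E8.5 (log2 fold change -0.59, SE 0.054, limma adjusted p 3.9e-07). Usp29, a ubiquitin peptidase that shares the Peg3 control region, had 20.8 and 16.4 normalised counts at E8.5, against 21 and 21.9 at E7.5, and did not pass (log2 fold change -0.20, SE 0.12, limma adjusted p 0.17), but without E8.5 replicate 1 its adjusted p was 0.0465 at a log2 fold change of -0.37. Zim1, a zinc finger protein expressed from the maternal allele, was at 4.2 and 4.39 normalised counts at E8.5, against 1.91 and 2.23 at E7.5, and rose by a log2 fold change of 0.79.

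The Peg10-Sgce domain of chromosome 6 was mixed, with 3 members higher and 2 lower. Peg10, a retrotransposon-derived gene needed for the placenta, was at 352 and 317 normalised counts at E8.5, against 281 and 285 at E7.5 (log2 fold change 0.24, SE 0.061, limma adjusted p 0.0041). Sgce, epsilon sarcoglycan, was at 33.1 and 37.3 normalised counts at E8.5, against 31.2 and 28.1 at E7.5 (log2 fold change 0.24, SE 0.095, limma adjusted p 0.046). Both calls were lost without some library, and also when low genes were left in the fit (adjusted p 0.0738 for Peg10 and 0.163 for Sgce), or when no mean-variance trend was fitted (0.0862 and 0.116), and that of Sgce with DESeq2 (0.106). Peg10 had an adjusted p of 0.182 without E8.5 replicate 1, at a log2 fold change of 0.16. Sgce had adjusted p-values of 0.209, 0.0507 and 0.348 without E7.5 replicate 2, E8.5 replicate 1 and E8.5 replicate 2. Ppp1r9a, a phosphatase regulator, was at 24.3 and 25 normalised counts at E8.5, against 16.2 and 16.3 at E7.5, and rose by a log2 fold change of 0.57. Asb4, an ankyrin repeat protein, fell to 24.2 and 20.05 normalised counts at E8.5, against 34 and 38.4 at E7.5 (log2 fold change -0.69, SE 0.11, limma adjusted p 7.4e-05). Calcr, the calcitonin receptor, was near absent at E8.5, at 0.0525 and 0 normalised counts at E8.5, against 1.24 and 2.28 at E7.5, with 1 read at E8.5 and 67 reads at E7.5, and was called lower (limma adjusted p 4.2e-05). The ratio of E7.5 to E8.5 was 68.3, with a 95% counting interval of 11.8 to 2736, which covers counting error only. Among the trophoblast markers, led by Hand1 and Plac1, 5 of 9 were tested and all fell, and the 9 summed to 86.2 and 85.1 normalised counts at E8.5, against 165 and 157 at E7.5. Most of that sum was Hand1, also a marker of extraembryonic mesoderm, at 68.6 and 68.2 normalised counts at E8.5, against 125 and 116 at E7.5. The defining markers Elf5, Gcm1 and Tpbpa were below the filter, and Elf5 lay the other way, with 33 reads at E8.5 and 5 at E7.5. Their part in these placental genes was not tested.

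The Snrpn-Ube3a domain held 4 members that rose and 1 that fell. Ndn (chr7:62346569-62350262, GRCm38), or necdin, of the MAGE family, was at 103 and 115 normalised counts at E8.5, against 44.7 and 44.4 at E7.5. It was 2.44-fold higher at E8.5 (log2 fold change 1.27, SE 0.073, limma adjusted p 2.1e-09). Magel2, of the same family, was at 18.9 and 16 normalised counts at E8.5, against 8.21 and 8.62 at E7.5, and rose by a log2 fold change of 0.97. Mkrn3, a makorin RING finger protein, was at 6.03 and 6.74 normalised counts at E8.5, against 4.1 and 3.85 at E7.5 (log2 fold change 0.57, SE 0.15, limma adjusted p 0.0063), and without E8.5 replicate 2 its adjusted p was 0.0533 at 0.50. Ube3a, a ubiquitin ligase imprinted in brain, was at 147 and 142 normalised counts at E8.5, against 97.8 and 111 at E7.5, and rose by a log2 fold change of 0.46, with 27.3% of its exonic bases shared with other genes. Snrpn, a spliceosomal protein, fell, at 90.3 and 94.4 normalised counts at E8.5, against 132 and 133 at E7.5 (log2 fold change -0.52, SE 0.063, limma adjusted p 6.8e-06). Snrpn shares 27.3% of its exonic bases with Gm38393, which was at 19 and 18.1 normalised counts at E8.5, against 31.2 and 28.1 at E7.5.

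Nnat and 3 other paternally expressed transcripts that lie in the introns of a host were compared with the host. Nnat, neuronatin, lies in an intron of Blcap. Nnat was at 112 and 116 normalised counts at E8.5, against 69.1 and 63.6 at E7.5. It was 1.72-fold higher at E8.5 (log2 fold change 0.77, SE 0.069, limma adjusted p 2.6e-07). Blcap, the host, whose maternal expression is known from brain, was at 32.1 and 33.7 normalised counts at E8.5, against 24.3 and 26.4 at E7.5, and was called higher (log2 fold change 0.36, SE 0.093, limma adjusted p 0.0042), but without E8.5 replicate 2 its adjusted p was 0.0534 at 0.33. Peg13, a noncoding RNA in an intron of Trappc9, was at 29 and 25.2 normalised counts at E8.5, against 13.5 and 12.8 at E7.5. It was 2.06-fold higher at E8.5 (log2 fold change 0.99, SE 0.11, limma adjusted p 3.0e-06). Trappc9, a subunit of a vesicle-tethering complex, was at 13.1 and 11.6 normalised counts at E8.5, against 13 and 11.4 at E7.5, with overlapping stages and a log2 fold change of 0.017. Peg13 lies wholly in that intron. Without strand, reads from unspliced host RNA cannot be told apart from Peg13, nor from Nnat, which lies wholly in its host. The same limit holds for Zrsr1, with 90.8% of its exonic bases in Commd1 introns, and for Nap1l5 in a Herc3 intron. Zrsr1, a splicing factor retrogene in introns of Commd1, was at 2.36 and 2.71 normalised counts at E8.5, against 2.42 and 4.41 at E7.5. Its log2 fold change was -0.28 and it did not pass, though without E7.5 replicate 1 it was -0.62 at an adjusted p of 0.0330. Commd1, the host, was at 58.4 and 64.9 normalised counts at E8.5, against 59.2 and 62.1 at E7.5, and did not pass, with a log2 fold change of 0.021. Nap1l5, a nucleosome assembly retrogene in a Herc3 intron, was at 4.67 and 4.96 normalised counts at E8.5, against 1.8 and 2.33 at E7.5 (log2 fold change 0.93, SE 0.17, limma adjusted p 3.0e-04). Herc3 itself, an imprinted gene outside the members, moved the other way, at 6.4 and 6.84 normalised counts at E8.5, against 12.1 and 16.4 at E7.5.

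Gnas and Impact were called higher, and the remaining members did not pass or were not tested. Gnas, the stimulatory G-protein subunit, was at 14.3 and 13.9 normalised counts at E8.5, against 8.99 and 10.9 at E7.5, and was called higher (log2 fold change 0.47, SE 0.13, limma adjusted p 0.0070), but without E7.5 replicate 1 its adjusted p was 0.0752 at 0.35, and with no filter on low values it was 0.0568. The imprinting of Gnas depends on the tissue, and 22.0% of its exonic bases are shared with other genes. Its count does not tell apart transcripts from its several start regions. Nespas, the antisense RNA of Gnas, was at 3.04 and 2.56 normalised counts at E8.5, against 3.32 and 2.38 at E7.5, with overlapping stages. Of the exonic bases of Nespas, 38.5% are shared with other genes. Impact, a regulator of the kinase Gcn2, was at 136 and 124 normalised counts at E8.5, against 71 and 82.8 at E7.5. It was 1.69-fold higher at E8.5 (log2 fold change 0.75, SE 0.079, limma adjusted p 1.5e-06). H13, a signal peptide peptidase, was at 73.4 and 79.2 normalised counts at E8.5, against 86.9 and 74.5 at E7.5, and did not pass. Dcn, decorin, was at 1.1 and 0.835 normalised counts at E8.5, against 0.955 and 1.37 at E7.5, and did not pass. Kcnk9, a potassium channel, was below the filter, with 1 read at E8.5 and 4 at E7.5.

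By parental allele, both groups held more increases than decreases. Of 23 paternally expressed genes, 16 rose, 3 fell (Peg3, Ddc and Snrpn) and 4 did not pass, with a median log2 fold change of 0.60. Of 25 maternally expressed genes tested, 12 rose, 5 fell (Asb4, Calcr, Phlda2, Slc22a18 and Mirg) and 8 did not pass, with a median of 0.36. The share called higher was 69.6% and 48%, against 25.6% of all genes. Of the 8 members that rose at least 2-fold on the log2(normalised count + 1) scale, 6 were paternally and 2 maternally expressed, and of the 13 by the plain ratio of means, 10 and 3. The difference between the alleles was not tested. Of the 13 loci with at least 2 tested members, 6 held calls in both directions, 6 held only increases, and the Zrsr1 locus held no call. Of 35 members imprinted broadly, 21 rose and 6 fell, and of 13 imprinted mainly in some tissues, 7 rose and 2 fell. All of these 13 except Ddc are in the maternally expressed group, so the allele groups differ in scope too. The 7 that rose are all maternally expressed. Among the broadly imprinted maternal members tested, H19, Igf2r, Zim1, Cdkn1c and Grb10 rose. Asb4, Phlda2, Slc22a18 and Mirg fell, and Klf14, Meg3, Rian and H13 did not pass.

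Among genes that set, keep or read imprints, 28 were listed, of which 24 were tested, 7 rose (29.2%) and 2 fell (8.33%), against 25.6% and 26.4% of all genes, with a median log2 fold change of 0.077. Without E8.5 replicate 1, 1 of them was called lower. Dnmt3b, a de novo DNA methyltransferase, fell to 105 and 95.5 normalised counts at E8.5, against 508 and 468 at E7.5 (log2 fold change -2.27, SE 0.064, limma adjusted p 4.0e-13). Dnmt3a, the other de novo enzyme, was at 97.9 and 103 normalised counts at E8.5, against 127 and 116 at E7.5 (log2 fold change -0.27, SE 0.068, limma adjusted p 0.0042). Zfp57, which reads the methylated hexamer, was at 27.4 and 27.4 normalised counts at E8.5, against 30.7 and 30.7 at E7.5, and did not pass (log2 fold change -0.16, SE 0.089, limma adjusted p 0.14). Arid4b, a chromatin factor with the largest increase of the list, was at 90.8 and 100.2 normalised counts at E8.5, against 59.97 and 58 at E7.5 (log2 fold change 0.69, SE 0.072, limma adjusted p 1.6e-06). Arid4a, Tet3 and Rbbp6 rose by log2 fold changes of 0.58, 0.52 and 0.39.

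Imprinted genes outside the members were listed as well. Of 40 such genes in the table, 28 were tested, 13 rose (46.4%) and 6 fell (21.4%), against 25.6% and 26.4% of all genes, with a median log2 fold change of 0.26. Peg12, a paternally expressed gene, was at 25.5 and 28.1 normalised counts at E8.5, against 5.62 and 3.85 at E7.5 (log2 fold change 2.29, SE 0.15, limma adjusted p 8.2e-09). Phactr2, Smoc1 and Pde10a rose by log2 fold changes of 1.59, 1.45 and 1.43. Rhox5, an X-linked homeobox gene, fell to 7.66 and 7.83 normalised counts at E8.5, against 72.8 and 61.1 at E7.5 (log2 fold change -2.95, SE 0.11, limma adjusted p 8.5e-12). Sfmbt2, a Polycomb-related gene of trophoblast and visceral endoderm, fell to 5.3 and 3.81 normalised counts at E8.5, against 14.8 and 16 at E7.5. Herc3 and Pon2 fell by 0.99 and 0.45 on the log2 scale.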

How the data were processed

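The authors made SMART-Seq2 libraries, read 75 bases from one end of each fragment on a NextSeq500 and mapped them to mm10 by STAR. The paper names DESeq2 for normalization and the submitters' processing notes name edgeR, and the counting program and annotation release are not given in the sources used here. The deposited signal values are gene reads scaled by library by the authors, and 100% of them came out as whole reads within 0.0001 reads.

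Genes reaching a value of 1 in 2 or more libraries (13903 of 53397) were compared with limma 3.58.1 in R 4.3.3 (lmFit and eBayes with trend on log2(value + 1), two-sided, 2 residual and 12.8 prior degrees of freedom), with Benjamini-Hochberg adjustment over all genes kept. A log-scale test was used because the table is normalised, with edgeR 4.0.16 and DESeq2 1.42.0 on the recovered reads as alternatives, and other pseudocounts, filters, scalings, a replicate block and each library left out. Scripts were tested on simulated data. Overlaps and positions came from GENCODE vM21 on GRCm38, start regions and microRNAs from RefSeq GRCm38.p6.

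Each member was named with its values, or its reads where it did not pass the filter. From the lists of imprint maintenance and other imprinted genes, the called genes of greatest change, up to 4 higher and 4 lower, were named, with Zfp57 added after its values were seen, and from marker lists the 2 of highest mean. The members and lists were chosen with earlier results of these data known. Replicates of a stage differed by more than counting error, with a mean chi-square per gene of 2.07 at E8.5 and 2.37 at E7.5 for genes of 50 to 500 reads.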

Additional observations from a re-analysis of the deposited data

How the results depend on the processing

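Across 14 alternatives, 623 of 661 values of members kept their direction and their side of the threshold, 18 lost a call, 7 gained one and 13 turned direction. The 13 were of members with no call. With a library left out, their log2 fold changes ran from -0.15 to 0.030 for Meg3, -0.12 to 0.087 for Rian, -0.19 to 0.16 for Nespas, -0.62 to 0.049 for Zrsr1, -0.055 to 0.096 for Commd1, -0.075 to 0.11 for Trappc9, -0.19 to 0.033 for H13 and -0.27 to 0.0064 for Dcn. Rescaled without the most abundant gene, it was 0.0042 for Rian and 0.0052 for Nespas. Also with a library left out, members called higher numbered 25 to 28 and lower 8 to 9, and imprint maintenance genes called lower numbered 1 (without E8.5 replicate 1) to 3. With no mean-variance trend, 1 imprint maintenance gene was called lower, against 2. With a minimum value of 5, 3 maternally expressed genes were called lower, against 5. A pseudocount of 4 gave differences of -0.88 for the log2 ratio of H19 to Igf2 and 0.78 for Airn to Igf2r. The fitted log2 fold changes of low members moved most, from 0.43 to 2.84 over the alternatives for Slc22a3 and from -6.06 to -0.51 for Calcr. The cause was not tested.

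An alternative chosen after seeing the data left out 7 members that share over 20% of their exonic bases, and 23 members were then called higher and 7 lower. Replicate numbers did not pair the libraries: deviations of same-numbered libraries correlated at -0.0025 over all genes kept. With the replicate number as a block, 28 members were called higher and 9 lower, Rtl1 being the one gained, at a limma adjusted p of 0.0496. Counts of members called were 28 higher and 8 lower with edgeR, and 26 and 8 with DESeq2.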
